A study of Mus musculus with 203 samples.

Results

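The beta2 and CD103 integrin genes of leukocytes are described here in RNA-seq libraries of mouse airway and lung parenchyma, 43 taken at 3 weeks and 160 at 11 weeks. They are the 7 genes Itgax, Itgam, Itgal, Itgb2, Itgae, Itgb7 and Itga4, found by symbol among the 43346 gene identifiers of the count table, and each had 1 row there. All 7 passed the filter on low counts at 3 and at 11 weeks. In mice breathing air and given no further treatment, house dust mite extract (HDM) raised 7 of 7 genes against saline (PBS) in both tissues at both times, where 31.3% to 34.1% of all genes rose. At 11 weeks in mice that also breathed cigarette smoke it raised 5 or 6 of 7, where 7.51% to 17.5% of all genes rose. In PBS mice without dexamethasone, smoke raised Itgax, Itgam and Itgb2 in both tissues and Itgae in parenchyma. There 7.66% of all genes rose in airway and 17.7% in parenchyma. In PBS mice given dexamethasone, smoke raised Itgam alone, where 2.26% and 9.32% of all genes rose. Dexamethasone lowered Itgal, Itgae, Itgb7 and Itga4 in 8 of 8 comparisons, where 5.40% to 16.2% of all genes fell.

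Integrins are adhesion receptors made of an alpha and a beta chain. Itgb2 encodes the beta2 chain, CD18, which pairs with the products of Itgal (CD11a, giving LFA-1), Itgam (CD11b, giving Mac-1 or complement receptor 3), Itgax (CD11c, giving p150,95 or complement receptor 4) and Itgad (CD11d). LFA-1 is found on most leukocytes and binds ICAMs on endothelium, Mac-1 is abundant on neutrophils, monocytes and many macrophages, and CD11c marks dendritic cells and, in the mouse lung, alveolar macrophages. Itgb7 encodes the beta7 chain, which pairs with Itgae (CD103, the alphaE chain) to bind E-cadherin on epithelium, and with Itga4 (the alpha4 chain) to bind MAdCAM1. CD103 is known on lung resident T cells and on a subset of conventional dendritic cells. The alpha4 chain also pairs with beta1 (Itgb1) to form VLA-4, which binds VCAM1 and fibronectin.

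The mice were female Balb/C, with no genetic change named, and the labels give the same age of 18-20 weeks for every library. At 3 weeks they had received house dust mite extract (HDM) or phosphate buffered saline (PBS) into the nose on 5 days per week, with 11 airway and 12 parenchyma libraries after PBS and 10 of each tissue after HDM. At 11 weeks there were 10 libraries in each of 16 groups. These combine PBS or HDM (continued 3 times per week in weeks 4-11), normal air (AIR) or cigarette smoke (CS, 2 times per day on 5 days per week for 8 weeks), no further treatment or dexamethasone (DEX, a glucocorticoid, in week 11), and airway or parenchyma. All mice of the 3 week groups breathed air and had no DEX. Airway and parenchyma were separated by dissection, so each library is a mixture of cells, and fewer cells of a type cannot be told apart from less RNA per cell. The libraries have codes such as X63, and no label says which airway and which parenchyma came from the same mouse. Whether each library is 1 animal is not stated in the labels.

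In the GENCODE M21 annotation on mm10 (GRCm38), Itgal (chr7:127296260-127335138), Itgam (chr7:128062640-128118491) and Itgax (chr7:128129547-128150657) lie on the plus strand of chromosome 7, with Itgax downstream of Itgam. Itgb2 (chr10:77530252-77565708), Itgae (chr11:73090583-73147446) and Itga4 (chr2:79255426-79333123) are also on the plus strand, and Itgb7 (chr15:102215995-102231944) is on the minus strand. Itga4 shares 1124 exonic bases with Cerkl on the opposite strand, and Cerkl lay between 0.367 and 7.72 CPM over all libraries. Itgae holds Haspin on the opposite strand in an intron, with 0 shared exonic bases. Gm49368 shares 3450 exonic bases with Itgam on the same strand, of the 5024 exon bases of Itgam, and has no row in the count table used here. The strand setting of the counting is not given in the sources used here, so reads of the overlapping parts cannot be assigned with certainty. For Gm49368, on the same strand, no strand setting could separate them, a limit on the levels and shares of Itgam below.

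Promoters were read from RefSeq (GRCm38.p6), whose table held 4 of the 7 genes. All 4 are shown, whatever their change with HDM. Each line gives the 250 bases upstream of the start site, 5′ to 3′ on the strand of the gene. Capitals mark GAGGAA or its reverse complement TTCCTC (a core bound by PU.1, the product of Spi1) and TGTGGT or its reverse complement ACCACA (a core bound by RUNX factors), searched on both strands, and no marked match overlaps another.
Itgam (chr7:128062390-128062639, plus strand): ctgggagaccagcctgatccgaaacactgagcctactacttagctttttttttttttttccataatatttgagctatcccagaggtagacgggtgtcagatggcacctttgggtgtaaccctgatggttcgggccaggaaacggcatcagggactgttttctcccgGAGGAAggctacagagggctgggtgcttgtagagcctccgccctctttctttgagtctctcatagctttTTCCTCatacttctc
Itgax (chr7:128129300-128129549, plus strand): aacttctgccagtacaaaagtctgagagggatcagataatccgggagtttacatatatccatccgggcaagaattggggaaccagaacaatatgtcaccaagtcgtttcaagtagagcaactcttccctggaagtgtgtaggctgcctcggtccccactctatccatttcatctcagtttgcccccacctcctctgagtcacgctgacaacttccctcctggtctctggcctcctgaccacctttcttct
Itga4 (chr2:79255176-79255425, plus strand): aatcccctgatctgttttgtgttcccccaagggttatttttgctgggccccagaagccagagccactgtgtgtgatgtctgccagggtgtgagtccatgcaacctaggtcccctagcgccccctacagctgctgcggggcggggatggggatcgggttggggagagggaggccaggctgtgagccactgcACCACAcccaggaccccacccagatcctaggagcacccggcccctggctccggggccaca
Itgb7 (chr15:102231936-102232185, minus strand): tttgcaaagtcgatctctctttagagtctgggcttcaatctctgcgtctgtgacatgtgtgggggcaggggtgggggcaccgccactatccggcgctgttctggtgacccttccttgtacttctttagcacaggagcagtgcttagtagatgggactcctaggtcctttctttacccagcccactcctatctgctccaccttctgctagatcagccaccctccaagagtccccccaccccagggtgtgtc
Itgam held GAGGAA from position -84 and TTCCTC from position -15, counted from the start site, and Itga4 held ACCACA from position -60. Neither word occurred in this window of Itgax or Itgb7. GAGGAA or TTCCTC occurred in 23.3% and TGTGGT or ACCACA in 14.0% of the 32851 promoters of the table, so a match is a description of the letters only.

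Library totals lay between 13003087 and 40240680 counts, with a median of 28090612. Airway libraries carried alveolar RNA in varied amounts. The summed CPM (CPM, counts scaled to TMM-adjusted library sizes) of 6 alveolar epithelial markers ranged from 4748 to 21350 in PBS airways and from 19420 to 33380 in PBS parenchyma at 3 weeks. The library X63 (HDM airway, 3 weeks) was the lowest of its group for the alveolar list (2779, group median 10530) and for 6 pan-leukocyte genes (1190, group median 2314). X81 and X161 (PBS airway, 3 weeks), X65, X67 and X75 (airway, 11 weeks) and X12 (HDM.AIR.DEX parenchyma) were the highest of their groups for 7 T cell genes, for 4 genes of lymph node stroma and follicles, or both. Of 4 thymocyte markers, Rag2 and Ptcra were under 0.1 CPM on average in all 20 groups. However, 2 of the 4 passed the filter on low counts in the fit of all libraries, so the list as a whole was not absent. Values without these libraries are given where they change a call.

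Compared per length, as TPM-like values (counts over exon length, scaled to the same sum in each library), Itgb2 was the most abundant of the 7 genes in PBS mice at 3 weeks. It reached 50.2 ± 10.5 TPM (SD, n = 12) in parenchyma. There Itgb7 followed with 22.7 ± 4.25, Itgax with 18.1 ± 3.84, Itgal with 12.6 ± 2.00, Itgam with 6.55 ± 1.33, Itga4 with 4.85 ± 0.842 and Itgae with 2.52 ± 0.357. The exons of Itga4 sum to 13978 bases against 2770 for Itgb7, and an unequal use of its long exons would move its level. Itgad, the remaining beta2 partner, had 0 to 21 counts in any library. In HDM parenchyma at 3 weeks the order by TPM was Itgb2 (464), Itgax (227.9), Itgam (80), Itgal (57.3), Itgb7 (47.3), Itga4 (14.9) and Itgae (11.2).

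Across the 20 groups the median level of Itgax ranged 13.4-fold, from 40.5 CPM in 3 week PBS airway to 541 CPM in 3 week HDM parenchyma. Itgam ranged 11.0-fold and Itgb2 9.57-fold between the same groups. Itgal was lowest in PBS.CS.DEX airway (32.9 CPM) and highest in 3 week HDM parenchyma (184.3 CPM), a 5.60-fold range. The genes outside the beta2 family had their lowest median in PBS.CS.DEX parenchyma, at 3.14 CPM for Itgae, 12.7 CPM for Itgb7 and 22.5 CPM for Itga4. Itgae (27.7 CPM) and Itga4 (113.5 CPM) were highest in HDM.AIR airway at 11 weeks, and Itgb7 (67.1 CPM) in HDM airway at 3 weeks. When the groups were ordered by their medians, the ranges of all 19 neighbouring pairs overlapped for each of the 7 genes. Neighbours in such an order are close by construction, so this overlap does not bear on groups further apart.

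**Figure D1:**
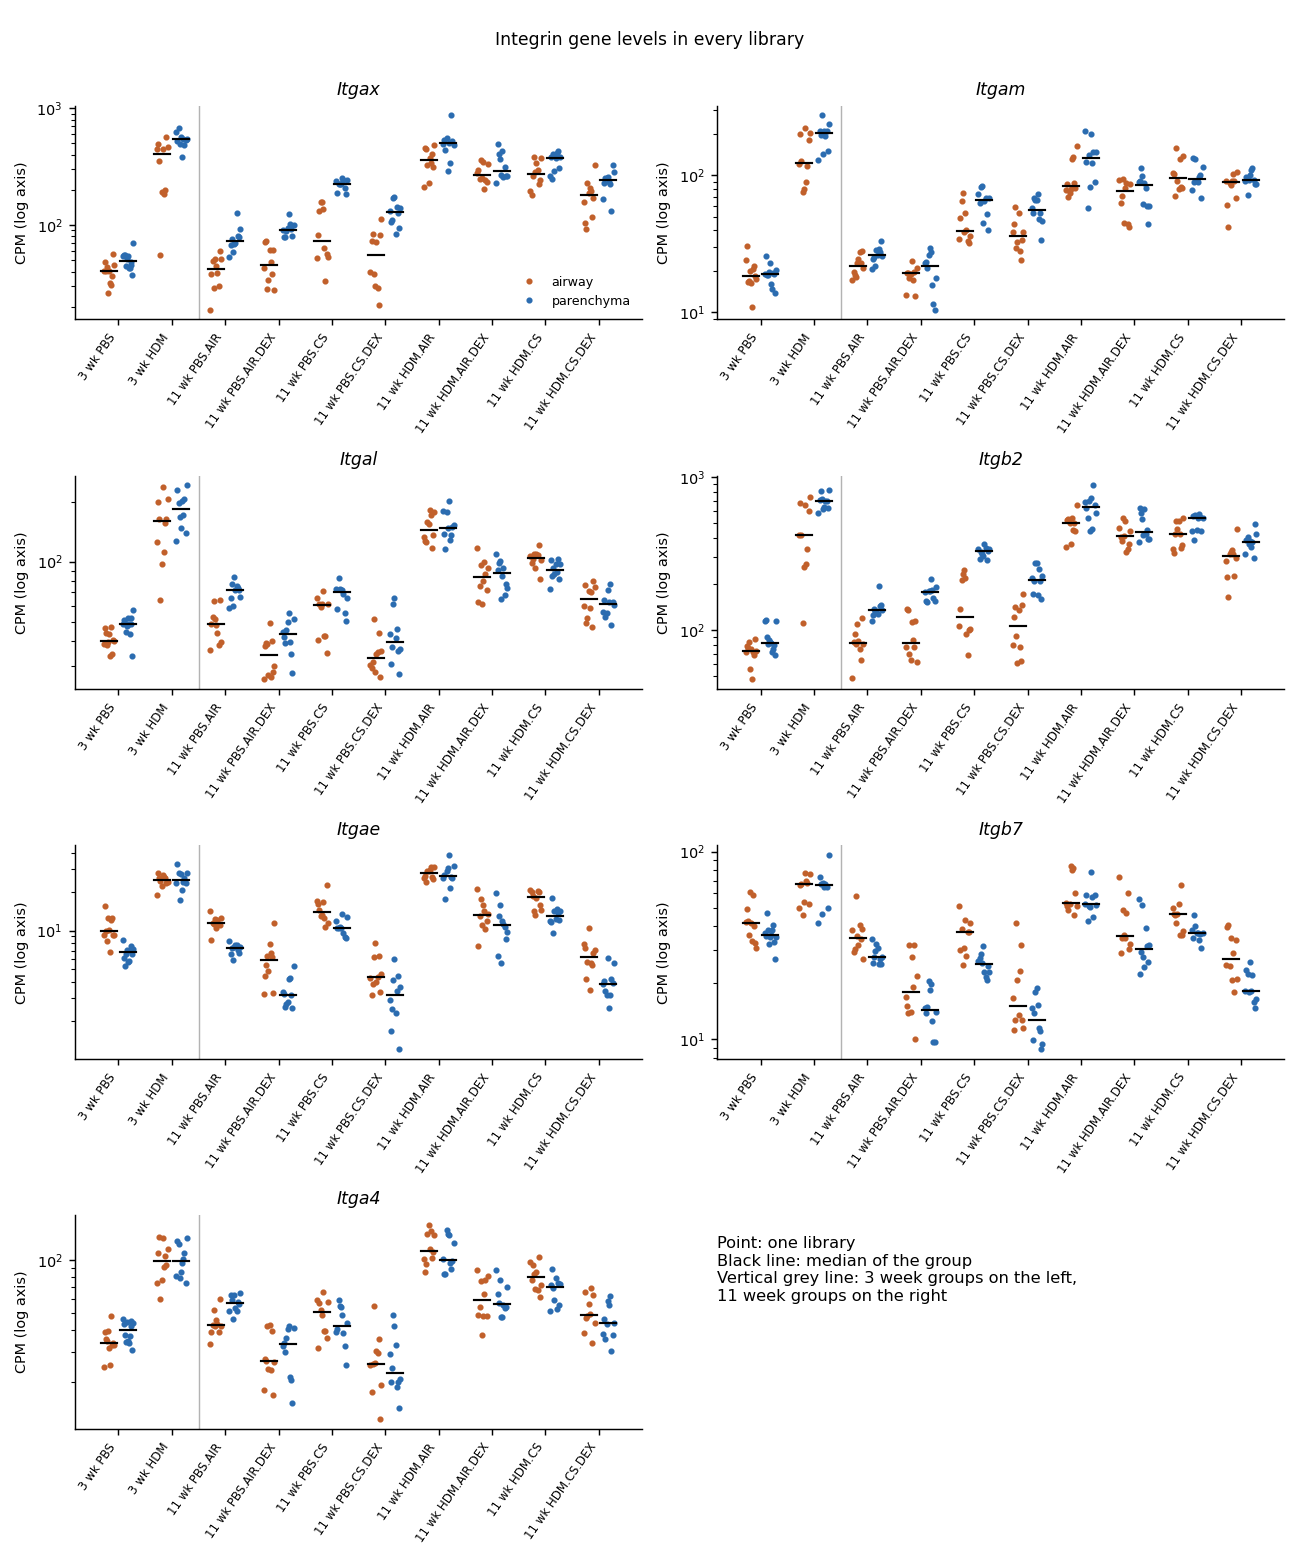
Level of each integrin gene in CPM (log axis) in every library of the 20 groups, with airway in orange, parenchyma in blue and the group median as a black line. Itgax, Itgam, Itgal and Itgb2 have their highest median in 3 week HDM parenchyma, and Itgae, Itgb7 and Itga4 their lowest in PBS.CS.DEX parenchyma (3.14 CPM for Itgae).

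The first question is what HDM did at 3 weeks. All 7 genes were higher in HDM than in PBS mice in both tissues by limma-voom at an adjusted p under 0.05, a rule that 34.1% of 17381 genes met upward in airway and 33.4% in parenchyma. With a log2FC of at least 1 as well, 6 of 7 genes were called in each tissue, against 12.1% of all genes in airway and 14.5% in parenchyma. The median log2FC of the 7 genes was 1.79 in airway and 1.85 in parenchyma, and that of all genes tested was -0.07 and -0.13. Ranges of HDM and PBS libraries did not overlap for 5 of 7 genes in airway and 6 of 7 in parenchyma. The share of all genes without overlap was not computed, here or in later comparisons, so these counts describe the members only.

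Itgax, the CD11c chain, ran from 37.2 to 70.4 CPM (median 49.9) in PBS parenchyma and from 384 to 674 CPM (median 541) in HDM parenchyma. No PBS library came near the lowest HDM library, and the log2FC was 3.35 (standard error 0.22, limma adjusted p = 2.6e-17). In airway Itgax ran from 26.4 to 56.4 CPM (median 40.5) in PBS and from 56.03 to 566 CPM (median 404) in HDM. All HDM airway libraries but X63 lay above all PBS libraries, and the log2FC was 2.83 (standard error 0.22, limma adjusted p = 5.4e-15), or 3.08 without X63. Itgam, the CD11b chain, rose from a range of 13.8 to 25.8 CPM to one of 130 to 274 CPM in parenchyma (log2FC 3.28, standard error 0.17). In airway it rose from 11.0 to 30.6 CPM to 75.8 to 220 CPM (log2FC 2.75, standard error 0.16), again without overlap.

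Itgb2, the common beta2 chain, had a median of 82.9 CPM in PBS parenchyma and ran from 579 to 815 CPM in HDM parenchyma, above all PBS libraries (log2FC 2.91, standard error 0.18). In airway its range moved from 47.8 to 87.1 CPM to 111.9 to 736 CPM, with X63 at the low end (log2FC 2.44, standard error 0.18). Itgal, the CD11a chain of LFA-1, had the smallest rise of the 4 beta2 genes. It moved from a median of 48.9 to 184.3 CPM in parenchyma (log2FC 1.85, standard error 0.14) and from 39.8 to 160 CPM in airway (log2FC 1.79, standard error 0.14), and neither pair of ranges overlapped.

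Itgae, the CD103 chain, ran from 5.32 to 8.42 CPM (median 6.79) in PBS parenchyma and from 17.1 to 32.8 CPM (median 24.7) in HDM parenchyma, a log2FC of 1.82 (standard error 0.12). In airway it ran from 6.83 to 15.4 CPM (median 9.96) and from 18.9 to 27.9 CPM (median 24.7), a log2FC of 1.19 (standard error 0.10). Both tissues thus reached the same median from different starting levels. Itga4 rose from a median of 33.8 to 99.3 CPM in airway (log2FC 1.49, standard error 0.12) and from 39.7 to 98.9 CPM in parenchyma (log2FC 1.28, standard error 0.12), without overlap. Itgb7 had the smallest change. Its range was 30.8 to 61.04 CPM in PBS airways and 46.03 to 77 CPM in HDM airways (log2FC 0.54, standard error 0.12, limma adjusted p = 0.00012), and in parenchyma the log2FC was 0.73 (standard error 0.12). The groups overlapped for Itgb7 in both tissues.

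The HDM effect at 3 weeks was compared between tissues as an interaction term, which 17.3% of all genes passed. Of the 7 genes only Itgae passed, with an effect smaller by 0.63 in airway than in parenchyma (log2 scale, standard error 0.15, limma adjusted p = 0.0046). In PBS mice Itgae was higher in airway than in parenchyma by a log2FC of 0.65 (standard error 0.12), and no other member passed there, against 56.1% of all genes. That count was 3 when X63 was left out. In HDM mice Itgax (log2FC -0.85), Itgam (-0.49) and Itgb2 (-0.76) were lower in airway than in parenchyma, 3 of 7 against 36.2% of all genes. Without X63 these were -0.59, -0.41 and -0.56.

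At 11 weeks in air, HDM again raised 7 of 7 genes in each tissue, where 31.3% of 18250 genes rose in airway and 32.6% in parenchyma. With a log2FC of at least 1, 6 of 7 genes were called in airway, all but Itgb7, and 7 of 7 in parenchyma, against 10.6% and 13.0% of all genes. Itgax moved from a range of 19.0 to 60.1 CPM to 210 to 483 CPM in airway (log2FC 3.17, standard error 0.21) and from 53.5 to 126.1 CPM to 292 to 867 CPM in parenchyma (log2FC 2.75, standard error 0.22). Itgae moved from a range of 5.92 to 8.33 CPM to 17.6 to 38.3 CPM in parenchyma (log2FC 1.95, standard error 0.15) and from 8.39 to 14.3 CPM to 23.8 to 31.1 CPM in airway (log2FC 1.31, standard error 0.13). In parenchyma none of the 7 genes overlapped between HDM and PBS, and in airway only Itgb7 did, a rule not applied to all genes.

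The tissue term at 11 weeks, passed by 27.6% of all genes, held for 2 of 7 genes. The HDM effect on Itgae was smaller in airway by 0.65 (log2 scale, standard error 0.20, limma adjusted p = 0.0082), in the same direction as at 3 weeks, and that on Itgal was larger in airway by 0.47 (standard error 0.17, limma adjusted p = 0.031). With sample quality weights Itgal gave 0.37 and did not pass (limma adjusted p = 0.085). In PBS air mice Itgax (-0.90), Itgal (-0.51) and Itgb2 (-0.72) were lower and Itgae (0.70) and Itgb7 (0.37) higher in airway than in parenchyma, as log2FC, 5 of 7 against 56.4% of all genes. For Itgb7 it was 0.29 (adjusted p = 0.091 by limma) without X12, X65, X67 and X75. In HDM air mice limma-voom found 0 of 7 genes to differ between the tissues, against 11.4% of all genes. There 3 genes had an unadjusted p under 0.05, edgeR and DESeq2 each called 0, and limma with sample quality weights called 3.

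The HDM effect was then compared between 11 and 3 weeks in a fit of all libraries. In parenchyma it was smaller at 11 weeks for 4 of 7 genes, where 20.9% of 18528 genes had a lower effect. They were the beta2 genes Itgam (-1.09), Itgb2 (-0.81), Itgal (-0.80) and Itgax (-0.73), on the log2 scale. Mean PBS levels at 3 and 11 weeks were 19.05 and 26.25 CPM for Itgam and 88.82 and 139.2 CPM for Itgb2. For Itgal they were 48.08 and 70.47 CPM and for Itgax 50.37 and 77.37 CPM. Mean HDM levels were 195.4 and 132.5 CPM for Itgam and 691.5 and 628.6 CPM for Itgb2. For Itgal they were 182.6 and 152.7 CPM and for Itgax 537.0 and 504.4 CPM. Higher PBS and lower HDM levels both enter these terms and were not tested apart. The limma adjusted p for Itgax was 0.046, and it did not pass with the stricter filter of at least 10 CPM in 9 libraries. In airway only Itgam had a smaller effect (-0.66), 1 of 7 against 13.9%, and with no filter on low counts it did not pass. Time and the continued schedule of HDM cannot be told apart here.

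**Figure D2:**
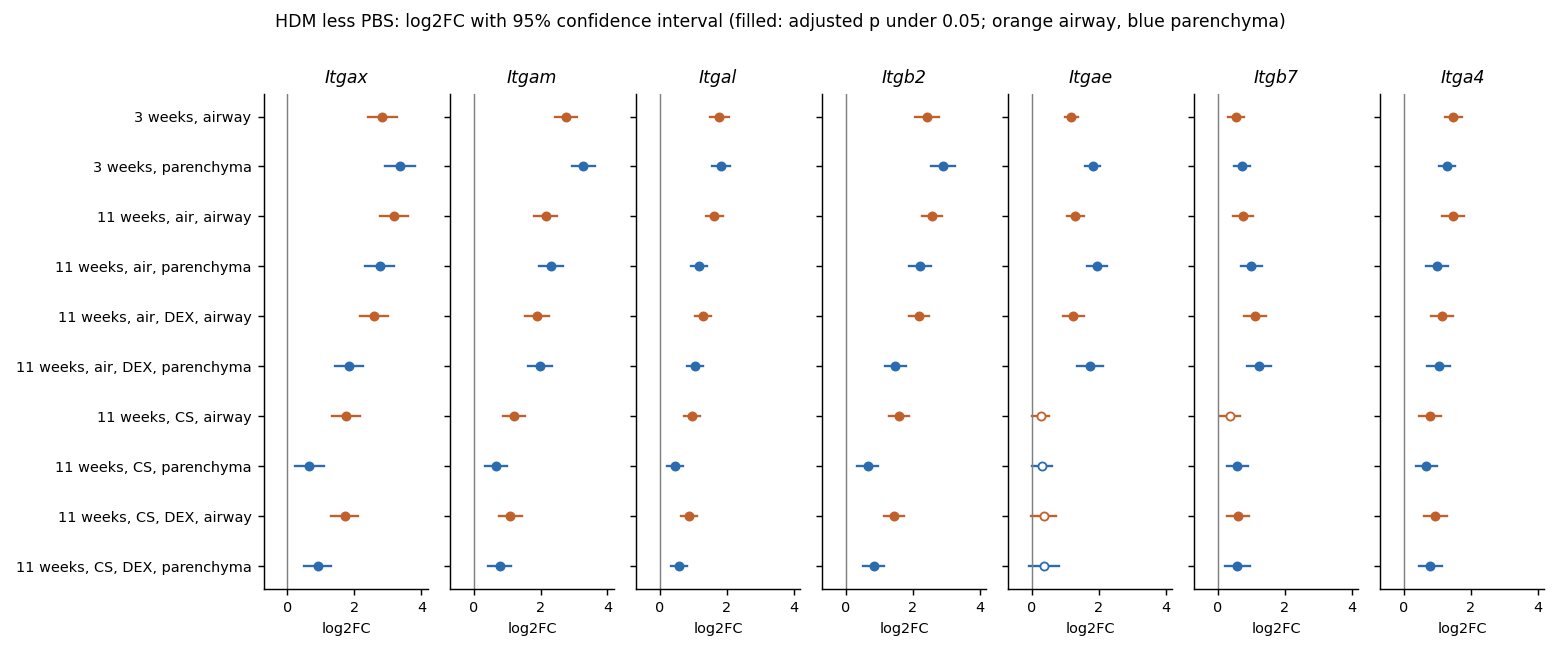
HDM less PBS for each gene (log2FC with 95% confidence interval, one row per setting and tissue, filled points at adjusted p under 0.05). At 11 weeks the rows under CS lie nearer to 0 than the matching rows in air, as for Itgax in parenchyma (0.65 against 2.75), and the open points are Itgae in all 4 CS rows and Itgb7 in 1 of them.

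In mice that also breathed smoke, HDM raised 5 of 7 genes in airway and 6 of 7 in parenchyma, against 17.5% and 7.51% of all genes. Itgax rose by a log2FC of 1.74 (standard error 0.21) in airway and 0.65 (standard error 0.22) in parenchyma, a rise that did not pass when all libraries entered 1 fit. Itgae did not pass in airway (0.27, adjusted p = 0.088) or parenchyma (0.31, adjusted p = 0.18). The difference of the HDM effect between CS and air was itself tested, and was negative for 6 of 7 genes in airway and 5 of 7 in parenchyma, against 11.4% and 18.7% of all genes. In parenchyma it was -2.10 for Itgax (standard error 0.31), -1.64 for Itgam, -1.57 for Itgb2, -1.64 for Itgae and -0.70 for Itgal, all on the log2 scale. In airway it was -1.43 for Itgax and -1.03 for Itgae. Itgb7 did not pass in airway (-0.40) or parenchyma (-0.42).

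The levels behind these terms were as follows. Itgax in parenchyma had a median of 73.2 CPM in PBS.AIR, 226 CPM in PBS.CS, 503 CPM in HDM.AIR and 376 CPM in HDM.CS. PBS.CS lay above PBS.AIR without overlap, from 185.5 to 255 CPM against 53.5 to 126.1 CPM, whereas HDM.CS (247 to 431 CPM) overlapped HDM.AIR (292 to 867 CPM). Itgae in parenchyma had medians of 7.37, 10.5, 26.5 and 13.0 CPM in the same order.

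Under DEX, HDM raised 7 of 7 genes in air in each tissue, against 23.6% of all genes in airway and 22.5% in parenchyma. In smoke with DEX it raised 6 of 7 in each tissue, all but Itgae, against 15.9% and 12.9%. The log2FC of Itgax in air with DEX was 2.58 in airway and 1.84 in parenchyma. In that parenchyma comparison none of the 7 genes overlapped between HDM and PBS, again without a share over all genes.

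Cigarette smoke alone was compared with air in PBS mice. In airway 3 of 7 genes rose, Itgax (log2FC 1.05, standard error 0.20), Itgam (1.01, standard error 0.18) and Itgb2 (0.76, standard error 0.14), against 7.66% of all genes, and 0 fell, against 6.03%. In parenchyma 4 of 7 rose, against 17.7%, and Itga4 fell (-0.40, limma adjusted p = 0.045), against 18.2%. That fall did not pass with edgeR, DESeq2 or no filter on low counts. The rises there were Itgax (1.58), Itgam (1.27), Itgb2 (1.24) and Itgae (0.58), each without overlap between the groups, a rule not applied to all genes. Itgam in parenchyma ran from 20.6 to 33.1 CPM in PBS.AIR and from 39.6 to 84.01 CPM in PBS.CS. Itgal did not pass in airway (0.13) or parenchyma (-0.06), while the other alpha chains of the beta2 family, Itgam and Itgax, rose. In parenchyma the macrophage list summed to 728 to 1274 CPM in PBS.AIR and 2107 to 3480 CPM in PBS.CS, and its part in these rises was not tested. Such a total is a plain sum of CPM, so its most abundant genes weigh most. The macrophage list holds Chil3 and Siglecf, the latter also on the eosinophil list, and its genes are not given apart here.

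In PBS mice given DEX, Itgam was the only gene of the 7 that smoke raised, by a log2FC of 1.02 (standard error 0.18) in airway and 1.49 (standard error 0.18) in parenchyma, against 2.26% and 9.32% of all genes. Its ranges did not overlap in either tissue, at 10.5 to 29.5 CPM in PBS.AIR.DEX and 33.9 to 73.3 CPM in PBS.CS.DEX parenchyma. Itgax gave 0.14 in airway and 0.42 in parenchyma, neither past the threshold. The DEX effect in smoke less that in air, passed by 3.22% of all genes in parenchyma, was -1.16 for Itgax (standard error 0.29, limma adjusted p = 0.0067) and -0.97 for Itgb2 (standard error 0.22, limma adjusted p = 0.0018). In airway, where 0.0822% of all genes passed, limma-voom, edgeR and DESeq2 each called 0 of 7, and 3 genes had an unadjusted p under 0.05. The CS effect did not differ past the threshold between tissues for any of the 7 genes by these tools, with 2 at an unadjusted p under 0.05, against 3.73% of all genes.

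Smoke added to HDM lowered 4 of 7 genes in each tissue, against 10.1% of all genes in airway and 14.1% in parenchyma. These were Itgae (log2FC -0.70 in airway, -1.06 in parenchyma), Itgal (-0.52 and -0.77), Itga4 (-0.57 and -0.73) and Itgb7 (-0.41 and -0.58). The fall of Itgb7 in airway had a limma adjusted p of 0.046 and did not pass with edgeR or DESeq2. Itgax, Itgam and Itgb2 did not pass in either tissue. In HDM mice with DEX, smoke lowered 5 of 7 genes in airway, against 3.23%, and 3 of 7 in parenchyma, against 5.58%. Itgae had the largest of these falls, with a log2FC of -1.12 in airway and -1.50 in parenchyma. It ran from 5.59 to 19.5 CPM in HDM.AIR.DEX and from 2.502 to 6.10 CPM in HDM.CS.DEX parenchyma.

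**Figure D3:**
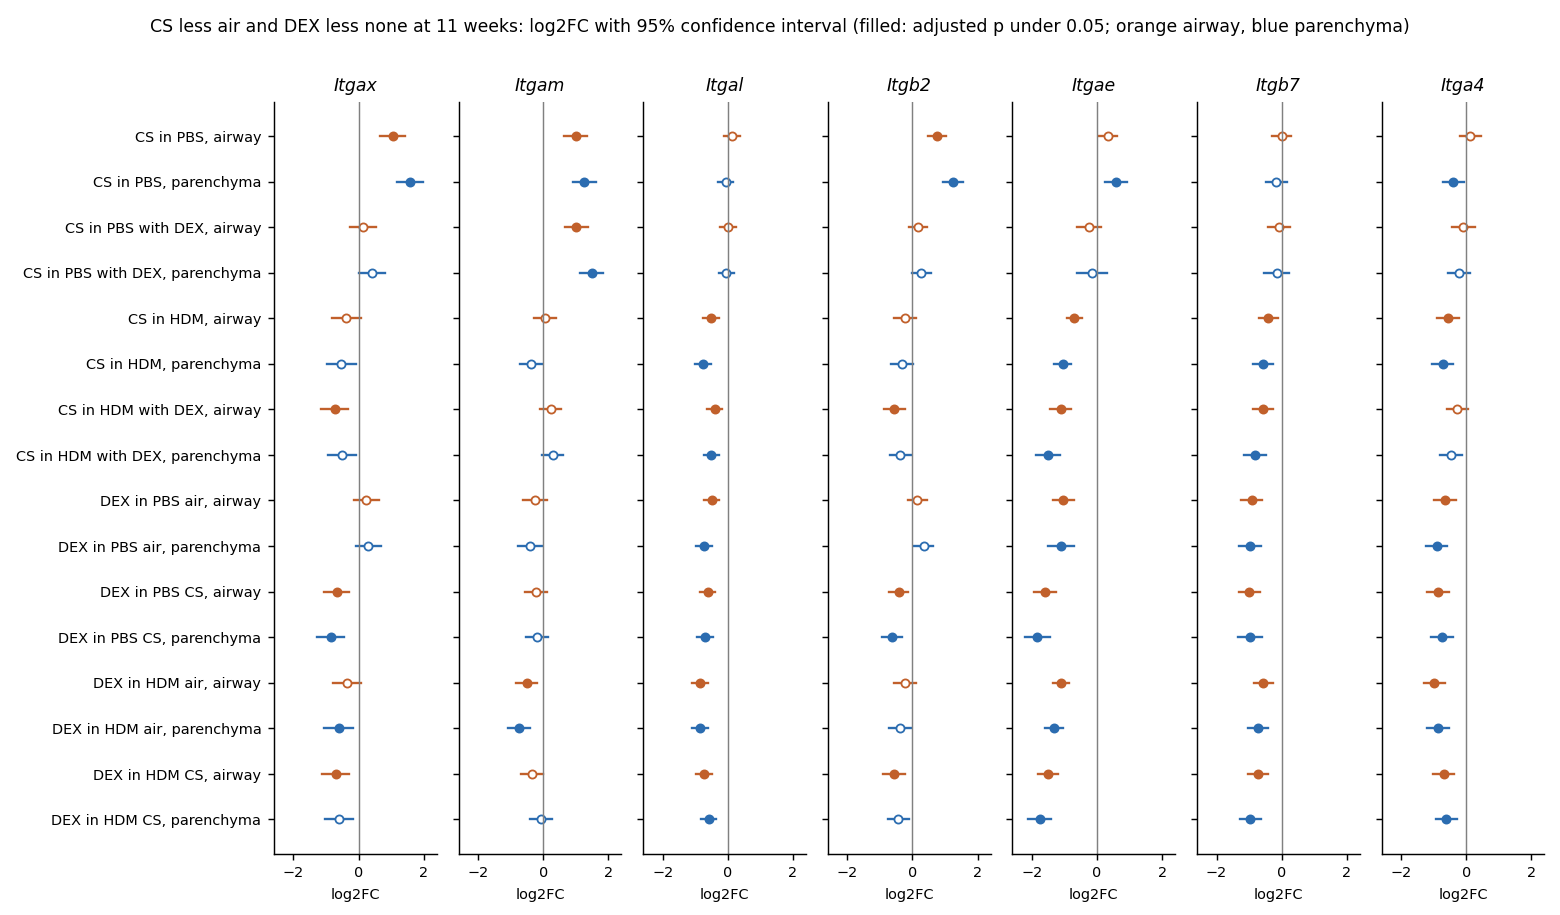
CS less air and DEX less no DEX at 11 weeks for each gene (log2FC with 95% confidence interval, one row per setting and tissue, filled points at adjusted p under 0.05). Itgal, Itgae, Itgb7 and Itga4 are filled and below 0 in all 8 DEX rows, and Itgam is filled and above 0 in the 4 rows of CS in PBS mice.

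DEX lowered Itgal, Itgae, Itgb7 and Itga4 in 8 of 8 comparisons (PBS or HDM, air or smoke, airway or parenchyma), where 5.40% to 16.2% of all genes fell. The comparisons share no libraries with each other. Airway and parenchyma may come from the same mice, however, so they cannot be counted as 8 independent results. Itgae fell the most, by 1.03 to 1.83 on the log2 scale. Itgb7 fell by 0.57 to 0.99, Itga4 by 0.62 to 0.99 and Itgal by 0.50 to 0.85. The other beta2 genes were called in fewer comparisons, with Itgax lower in 4, Itgb2 in 3 and Itgam in 2 of the 8, and none higher. The T cell list moved beside them, for example from 56.4 to 77.8 CPM in PBS.AIR parenchyma to 14.9 to 45.3 CPM in PBS.AIR.DEX parenchyma, while the macrophage list was at 728 to 1274 CPM and 1427 to 2278 CPM there. These totals too are plain sums in which the most abundant genes weigh most. The part of these lists in the DEX results was not tested.

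In PBS air mice 4 of 7 genes fell in each tissue, against 6.85% of all genes in airway and 12.0% in parenchyma. Itgae in parenchyma ran from 5.92 to 8.33 CPM without DEX and from 2.53 to 5.31 CPM with it, with no overlap. Itgb7 ran from 25.1 to 34.4 CPM and from 9.70 to 20.4 CPM, also apart. Itgax gave 0.24 in airway and 0.30 in parenchyma and Itgb2 0.16 and 0.34, neither past the threshold. In PBS smoke mice 6 of 7 fell in each tissue, all but Itgam, against 6.60% and 9.49%. Itgax in parenchyma ran from 185.5 to 255 CPM without and from 84.4 to 172.4 CPM with DEX (log2FC -0.85, standard error 0.21). The fall of Itgb2 in airway (-0.42) was -0.40 and did not pass (adjusted p = 0.055 by limma) without X12, X65, X67 and X75. In HDM air mice 5 of 7 fell in airway and 6 of 7 in parenchyma, against 16.0% and 16.2%, and the exceptions were Itgb2 in both tissues (-0.23 and -0.39) and Itgax in airway (-0.35). The fall of Itgam in airway (-0.51) did not pass with sample quality weights. The fall of Itgax in parenchyma (-0.61) was -0.56 and did not pass (adjusted p = 0.055 by limma) without those 4 libraries. In HDM smoke mice 6 of 7 fell in airway, against 7.05%, and 4 of 7 in parenchyma, against 5.40%. Itgae in HDM.CS.DEX parenchyma, from 2.502 to 6.10 CPM, lay below HDM.CS, from 9.53 to 17.7 CPM (log2FC -1.77, standard error 0.18).

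The DEX effect in HDM air less that in PBS air was negative in parenchyma for Itgax (-0.91, standard error 0.30, limma adjusted p = 0.029) and Itgb2 (-0.73, standard error 0.22, limma adjusted p = 0.019), 2 of 7 against 12.4% of all genes. In airway limma-voom, edgeR and DESeq2 each called 0 of 7, with 2 at an unadjusted p under 0.05, against 4.62%. The DEX effect in HDM air mice did not differ between tissues for any of the 7 genes by the same tools, with 0 at an unadjusted p under 0.05, and 0% of all genes passed.

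To set these changes against the amount of leukocyte RNA, each gene was divided by Ptprc (CD45, found on all leukocytes), and differences of log2 ratios were tested by 2-sided permutation of libraries, adjusted over all these tests. Ptprc itself rose with HDM at 3 weeks by a log2FC of 1.34 in airway and 1.09 in parenchyma. Relative to it, Itgax, Itgam and Itgb2 were higher in 12, 14 and 12 of 26 comparisons and lower in 0, Itgae was lower in 12 and higher in 4, and Itgb7 was lower in 6 and higher in 0. At 3 weeks in parenchyma the log2 ratio of Itgax to Ptprc was -2.29 ± 0.213 (SD, n = 12) in PBS and -0.02 ± 0.250 (SD, n = 10) in HDM, a difference of 2.27 (permutation p = 1e-05, adjusted p = 0.00021, where 100000 resamples allow no smaller raw p). Itgam differed by 2.19, Itgb2 by 1.82 and Itgal by 0.75, all higher. Itgb7 was lower relative to Ptprc, by 0.80 in airway (permutation adjusted p = 0.00021) and 0.36 in parenchyma (permutation adjusted p = 0.0040). The gain of 0.20 for Itga4 in parenchyma became -0.20 when the mean of 6 pan-leukocyte genes took the place of Ptprc. With that mean, 15 of the 74 calls relative to Ptprc no longer passed, and 1, that of Itga4, changed direction.

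With smoke in PBS parenchyma, Itgax (1.56), Itgam (1.25) and Itgb2 (1.22) were higher relative to Ptprc and Itga4 was lower (-0.42). Itgae (0.56) was higher too, but not with the pan-leukocyte mean (0.08). With DEX in PBS air mice, Itgax was higher relative to Ptprc by 0.92 in airway and 0.91 in parenchyma, and Itgb2 by 0.84 and 0.95. The levels of Itgax and Itgb2 did not pass there. Their mean CPM with DEX was 1.181 and 1.209 times that without it for Itgax, and 1.116 and 1.261 times for Itgb2. The gains in the ratio thus include a fall of Ptprc and are not rises of these genes alone. Itgae was lower relative to Ptprc in both tissues with DEX in HDM smoke mice, by 0.94 in airway and 1.22 in parenchyma, so its fall exceeded that of Ptprc there.

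**Figure D4:**
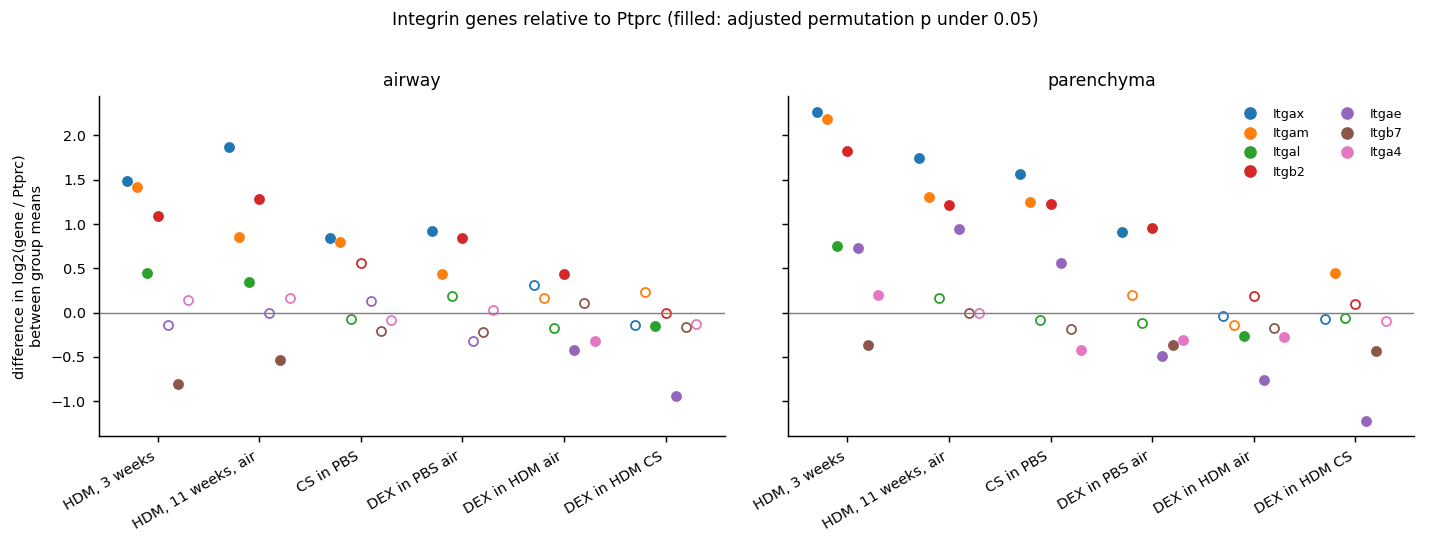
Difference between group means of log2(gene/Ptprc) for 6 comparisons in each tissue, with filled points at an adjusted permutation p under 0.05. Itgax, Itgam and Itgb2 lie above 0 with HDM, and Itgae lies at -0.94 in airway and -1.22 in parenchyma with DEX in HDM.CS mice.

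The 4 partners of beta2 were also compared as shares of their summed TPM. In PBS parenchyma at 3 weeks Itgax held 48.4% ± 2.36, Itgal 33.96% ± 1.93, Itgam 17.5% ± 1.63 and Itgad 0.145% ± 0.126 (SD, n = 12). In HDM parenchyma the share of Itgax was 62.6% ± 7.00 and that of Itgal 15.6% ± 3.03 (SD, n = 10, permutation adjusted p = 0.00026 and 0.00023). In airway Itgal went from 33.8% ± 3.89 (SD, n = 11) to 20.2% ± 4.56 (SD, n = 10). The share of Itgal was lower in 15 of 26 comparisons and higher in 0. The shares of a library have a fixed sum, so that of Itgal falls where Itgax or Itgam rises more. A lower share is thus not a lower level, and with HDM at 3 weeks the level of Itgal rose in both tissues. Itgad was too low for a fold, with 4 to 21 counts per library in HDM.AIR airway and 0 to 6 in PBS.AIR airway.

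Smoke alone took Itgal from 33.8% ± 3.68 to 14.7% ± 1.06 in parenchyma (SD, n = 10 each), and Itgax from 49.7% ± 4.84 to 67.2% ± 3.24. These shares of PBS.CS parenchyma were near those of HDM.AIR parenchyma (Itgal 15.6% ± 3.39, Itgax 67.4% ± 6.79), a contrast that was not tested. With DEX the shares moved too. In PBS air parenchyma the share of Itgax rose from 49.7% to 64.9% ± 5.02, and in PBS smoke parenchyma it fell from 67.2% to 59.9% ± 6.00, while Itgam rose from 18.1% ± 2.94 to 25.7% ± 5.57 (permutation adjusted p = 0.0016).

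**Figure D5:**
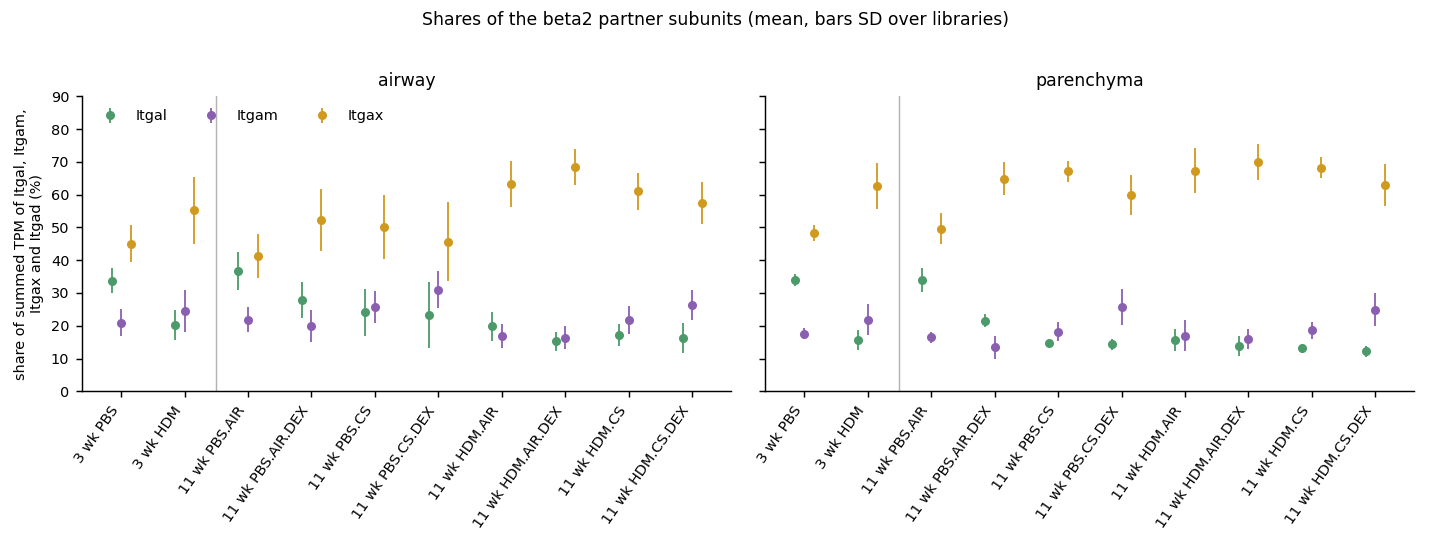
Share of Itgal, Itgam and Itgax in the summed TPM of Itgal, Itgam, Itgax and Itgad, as mean and SD over the libraries of each group. Itgal holds 33.8% to 36.7% in the PBS groups without smoke or DEX and less in all other groups, and Itgax holds the largest share in every group.

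Genes that work with these integrins were taken as lists. Among 18 other integrin subunits tested, HDM at 3 weeks raised 5 and lowered 5 in airway and raised 7 and lowered 7 in parenchyma. Of all genes, 34.1% rose and 40.5% fell in airway, and 33.4% rose and 44.3% fell in parenchyma, so these counts do not set the list apart. The median log2FC was -0.03 and -0.16. Itga5, the fibronectin receptor alpha chain, rose in both (1.21 and 1.75), as did Itga2 in airway (1.71) and Itga7 in parenchyma (1.51). Itga8, a subunit of fibroblasts and smooth muscle, fell by 2.83 and 3.19, and Itga11 by 1.39 and 0.64. Itgb1, the other partner of Itga4, did not pass (-0.10 in each tissue).

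Of 15 ligand genes tested, HDM at 3 weeks raised 7 and lowered 5 in airway, against 34.1% and 40.5% of all genes, and raised 8 and lowered 6 in parenchyma, against 33.4% and 44.3%. C3, whose fragment iC3b is bound by Mac-1, rose by 1.48 and 2.57. Icam2, an endothelial ligand of LFA-1, fell by 1.10 and 1.40, and Jam3, a ligand of Mac-1, by 1.06 and 1.25. Madcam1, the ligand of alpha4beta7, passed as higher in both tissues from very low counts, with 0 to 1 counts per PBS parenchyma library and 3 to 24 per HDM parenchyma library. In airway it lay between 0 and 3.79 CPM in PBS and between 0.578 and 1.32 CPM in HDM, and the highest PBS library was X81, also the highest of its group for the lymph node list, so the airway groups overlapped.

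Of 23 genes of integrin activation and signalling, HDM at 3 weeks raised 20 in airway and 19 in parenchyma, against 34.1% and 33.4% of all genes, and lowered 1 and 3, against 40.5% and 44.3%. Fgr, a kinase of the Src family, rose by 2.36 and 2.54, Syk by 1.95 in airway and Fcer1g, an adaptor for Syk, by 2.49 in parenchyma. Rasgrp2, the exchange factor that activates Rap1, fell by 0.64 and 1.21. Of 7 transcriptional regulators, 6 rose in airway and 7 in parenchyma, against the same 34.1% and 33.4%, led by Irf4 (2.13 and 2.68) and Spi1 (1.98 and 2.56). At 11 weeks in air HDM raised 21 and 17 of the activation genes, against 31.3% of all genes in airway and 32.6% in parenchyma, and lowered 1 and 2, against 29.8% and 26.9%.

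Smoke in PBS mice raised 10 of 23 activation genes in airway and 12 in parenchyma, against 7.66% and 17.7% of all genes, led in both by Lcp1 (0.69 and 1.06) and Tyrobp (0.71 and 1.04). DEX in HDM air mice lowered 11 in airway and 12 in parenchyma, against 16.0% and 16.2% of all genes, and raised 0, against 12.5% and 12.2%. Skap1 (-0.88 and -0.85) and Fyb (-0.77 and -0.84), adaptors of T cell integrin activation, had the largest falls. Of the 7 regulators 4 fell in each tissue with DEX, against the same 16.0% and 16.2%, with Irf4 first (-1.51 and -1.38).

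The genes whose 20 group means followed each integrin gene best were named by Pearson correlation of log2 CPM, given as a description over groups that share treatments. For Itgax they were Itgb2 (0.997), Mpeg1 (0.994) and Apbb1ip (0.993), and for Itgb2 they were Mpeg1 (0.998), Itgax and Csf2rb (0.989). For Itgam they were Pla2g7 (0.979), Ccr1 (0.979) and Malt1 (0.976), and for Itgal Csk (0.990), Dennd4b (0.989) and Dock2 (0.984). For Itga4 they were Itgal (0.973), Ikzf1 (0.972) and Kif21b (0.970). For Itgae they were Sept3 (0.977), Flt3 (0.972), which marks dendritic cells, and Dnase1l3 (0.966), and for Itgb7 Ptprcap (0.987), Cxcr3 (0.986) and Traf3ip3 (0.985).

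Within groups, after the group mean of each gene was removed, Itgax and Itgb2 still varied together over all libraries of the 20 groups (r = 0.938), as did Itgal and Itga4 (0.790) and Itgb7 and Itga4 (0.691). Itgax and Itgb7 varied in opposite senses (-0.282), and Itgae and Itgb7, the chains of CD103 integrin, had an r of 0.480. Of the marker lists, Itgax and Itgb2 followed 9 macrophage genes best (0.822 and 0.820), Itgam 6 neutrophil genes (0.588), Itgb7 and Itga4 7 T cell genes (0.883 and 0.698) and Itgae 6 dendritic cell genes (0.637). Itgal followed the pan-leukocyte list best (0.679), a list with Ptprc in it. Over the airway libraries alone Itgax also followed the alveolar epithelial list (0.783), as did Itgb2 (0.761). There Itgb7 followed the T cell list (0.909) more closely than the lymph node list (0.809). These values move with the results in airway, and their part in them was not tested. In parenchyma at 3 weeks the macrophage list summed to 438 to 1192 CPM in PBS and 3910 to 25890 CPM in HDM, and the T cell list to 72.7 to 112.2 CPM and 176.8 to 409 CPM. These totals rose beside the integrin genes, and the part of the lists in the rises was not tested. Each total is a plain sum that an abundant gene can set, so it is not a measure of cell number.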

How the data were processed

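The authors sequenced single-end reads, aligned them to mm10 with STAR 2.5.1b and, per the submitters' processing notes, quantified genes with RSEM 1.2.31 and kallisto 0.44.0. They deposited a single table of estimated counts, not scaled for depth or length, and which of the quantifiers made it is not given in the sources used here. Of its non-zero values 20.3% were not whole, so the expected counts were rounded. Identifiers were matched to GENCODE M21 without their version (42462 of 43346 matched), since only 23106 matched with it. Promoter sequences came from RefSeq (GRCm38.p6). Total counts per library ranged from 13003087 to 40240680, and no pair of libraries of a group differed by as little as counting noise.

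Scaling used the TMM factors of edgeR 4.0.16 and testing used voom in limma 3.58.1 (R 4.3.3), with 1 mean per group and Benjamini-Hochberg adjustment over all genes. A gene was tested if 9 or more libraries reached the CPM that 10 counts represent at median depth. The 43 libraries at 3 weeks (17381 genes), the 160 at 11 weeks (18250 genes) and all 203 (18528 genes) were fitted separately. The steps were tested on simulated data. Log2 ratios to Ptprc used a prior count of 2, and these and the shares were tested (182 and 104 tests) with 100000 permutations of libraries in Python 3.11.15. TPM-like values used the union of exons. Where nothing says that libraries came from separate animals, p-values measure only the spread between libraries.

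The alternatives tried were DESeq2 1.42.0, its size factors in voom, the quasi-likelihood test of edgeR, other filters, sample quality weights, all libraries in 1 fit, another leukocyte reference, another prior count (0.5), another gene length and, chosen after seeing the data, fits without 3 sets of libraries and fits blocked on the library codes. The genes named were the 7 members, Ptprc, overlapping genes, the 3 best correlated genes of each member, and the largest changes of each list in the comparison described. Itgad and Itgb1, partners of the members, were named after their values were seen. Outlying libraries were sought in 126 groups of values. The members and lists were chosen with earlier results of these data known.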

Additional observations from a re-analysis of the deposited data

Results flagged for a closer look

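Groups of 10 libraries were tested, gene by gene, for a library far from the others, and 3 had one, where chance alone flags about 1 in 20, which is more than 3 of the groups tested here. Itgax was at 56.03 CPM in X63, the lowest HDM airway library at 3 weeks, where the group median was 404 CPM. Itgb2 was at 195.5 CPM in X126, the highest PBS.AIR parenchyma library (median 134.8 CPM), and Itgb7 at 78.1 CPM in X110, the highest HDM.AIR parenchyma library (median 52.5 CPM).

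Effects that differed between tissues or times by their own test were the following, all on the log2 scale with limma adjusted p. The HDM effect on Itgae was smaller in airway than in parenchyma at 3 weeks (-0.63, adjusted p = 0.0046) and at 11 weeks (-0.65, adjusted p = 0.0082), and that on Itgal was larger in airway at 11 weeks (0.47, adjusted p = 0.031), a call lost with sample quality weights (0.37, adjusted p = 0.085). The HDM effect was smaller at 11 than at 3 weeks for Itgam in airway (-0.66, adjusted p = 0.034), a call lost with no filter on low counts. In parenchyma it was smaller for Itgax (-0.73, adjusted p = 0.046), Itgam (-1.09, adjusted p = 0.00018), Itgal (-0.80, adjusted p = 8.5e-05) and Itgb2 (-0.81, adjusted p = 0.0025). Mean PBS levels of these genes in parenchyma were higher at 11 weeks, and mean HDM levels lower.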

How the results depend on the processing

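No limma-voom call of a member at an adjusted p under 0.05 changed direction under any alternative. Estimates that did not pass were not checked for this. Of the counts of genes that passed, 1 in airway against parenchyma in PBS mice at 3 weeks became 2 with DESeq2, with the stricter CPM filter and with sample quality weights, and 3 without X63. The count for 11 against 3 weeks in airway went from 1 to 0 with no filter on low counts. With sample quality weights, counts became 2 for CS in PBS mice with DEX (parenchyma), 5 for CS in HDM mice with DEX (parenchyma), 1 for the tissue difference of the HDM effect at 11 weeks, where Itgal gave 0.37 (adjusted p = 0.085), and 3 for airway against parenchyma in HDM air mice. Without X12, X65, X67 and X75, which move no count by over 1.5 times, DEX gave Itgax -0.56 in HDM air parenchyma (adjusted p = 0.055) and Itgb2 -0.40 in PBS smoke airway (adjusted p = 0.055), and Itgb7 gave 0.29 for airway against parenchyma in PBS air (adjusted p = 0.091).

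With the pan-leukocyte mean in place of Ptprc the counts became, for HDM against PBS, 5 in CS airway, 3 in CS airway with DEX, 7 in air parenchyma, 1 in CS parenchyma, 2 in air parenchyma with DEX and 2 in CS parenchyma with DEX, and, for CS in HDM mice with DEX, 2 in airway and 4 in parenchyma. There Itga4 with HDM at 3 weeks in parenchyma reversed to -0.20. With the longest transcript as gene length, the count of shares for CS in HDM mice with DEX in parenchyma became 1. The causes of these changes were not tested. The labels carry no shared replicate numbers, but the library codes run in series of 20 with 1 library of nearly every group, and airway and parenchyma of one exposure have adjacent codes, so a replicate block on each was tried after seeing the data. Deviations from group means correlated above 0.1 in 14 of 21 adjacent pairs at 3 weeks (median 0.163) and 71 of 80 at 11 weeks (median 0.25), against medians of -0.0144 and -0.00867 across tissues in different series, a hint from the data that some pairs share a source. With the block on series the count became 2 for the tissue difference of the HDM effect and 2 for airway against parenchyma in PBS mice, both at 3 weeks. With the block on adjacent codes it became 1 for the tissue difference of the CS effect and 1 for airway against parenchyma in HDM air mice. That block also ended the calls of Itgb2 for DEX in PBS smoke airway (-0.43, adjusted p = 0.059), Itgax for HDM in CS parenchyma (0.65, adjusted p = 0.055) and Itgax for 11 against 3 weeks in parenchyma (-0.73, adjusted p = 0.055), and neither block ended another call of a member by limma-voom. Depth limited Itgad and Madcam1, with few or no counts in many libraries.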
